A study of Monodelphis domestica with 6 samples.

Results

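The genes described here encode nuclear subunits of oxidative phosphorylation and factors that assemble them, in cultured cells of a marsupial, the opossum *Monodelphis domestica*. They were chosen by symbol: every gene whose name starts with NDUF, UQCR, ATP5 or COX and a digit, and the succinate dehydrogenase genes SDHA to SDHD. The rule found 61 of the 35665 genes in the deposited tables. Of these, 34 are subunits of complex I (5 core and 29 accessory), 4 of complex II, 1 of complex III, 1 of complex IV and 12 of complex V, and 9 are assembly factors. All 61 reached the expression minimum, a normalized read count (NRC, the study's depth-scaled count per gene) of at least 20 in both fibroblast or all 4 stem cell libraries, and were tested. ATP5O reached it through the stem cell libraries. The remaining genes of complexes III and IV were not analysed here, so both complexes are seen through a single gene each. Several subunits of complexes I and V and the subunits encoded in mitochondrial DNA were not analysed either. Values given for complexes I and V thus cover only the subunits found. Gene identifiers place 15 of the 61 genes on chromosome 3, 13 on chromosome 4 and 1, NDUFA1, on the X chromosome of the MonDom5 assembly.

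Oxidative phosphorylation takes place in the inner mitochondrial membrane. Complex I oxidizes NADH and complex II oxidizes succinate, and both hand electrons to ubiquinone. Complex III passes them to cytochrome c and complex IV to oxygen, and the proton gradient built on the way drives ATP synthase, complex V. Complex I has a small set of catalytic core subunits, found also in bacteria, and a larger shell of accessory subunits, and dedicated assembly factors join them in modules without staying in the finished enzyme. In mouse and human, pluripotent stem cells are known for a strong reliance on glycolysis, while fibroblasts respire more.

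Transcript levels were compared between neonatal skin fibroblasts (neoSFs) and the induced pluripotent stem cells (monoiPSCs) made from them. The 2 neoSF libraries came from wild-type, untreated primary cultures of the inbred strains FD2M1 and LSD1, started from 10-day-old female pups and grown for 3 to 4 passages in fibroblast medium with serum. The 4 monoiPSC libraries came from 1 line of each strain at passage 15 (P15) and passage 25 (P25). The lines were made with episomal plasmids carrying human OCT4, SOX2, NANOG, KLF4, LIN28 and cMYC, and with the plasmids pCE-mp53DD and pCXB-EBNA1. They were grown without feeders or serum, with LIF, bFGF and a ROCK inhibitor. Each strain is thus represented by 1 fibroblast culture and 1 line, nothing in the labels says that the 2 passages are separate derivations, and p-values measure the spread among these libraries only. The neoSF libraries were read in-house with single 50 base reads and the monoiPSC libraries by a sequencing service with paired 150 base reads, so sequencing, culture medium and cell type cannot be told apart in any difference between the groups.

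Library totals were 14278621 and 16982810 counts in neoSFs and 28684765 to 35564224 in monoiPSCs. The labels were checked against marker genes. Of 9 fibroblast markers, 8 were found, with a summed NRC of 2082542 to 2626790 in neoSFs and 14867 to 17841 in monoiPSCs. The 8 pluripotency markers summed to 132 to 194 in neoSFs and 10771 to 14955 in monoiPSCs. Muscle markers were also present in the monoiPSCs: 8 of 10 were found and summed to 2926 to 28968, against 19113 to 22065 in neoSFs. Most of the neoSF sum was 1 gene, ACTC1, at 16344 and 21468 in the FD2M1 and LSD1 neoSFs. MYOG, a muscle regulator, had NRCs of 205.7 and 22.17 in these neoSFs, of 985.5 and 1527 in the FD2M1 line and of 4135 and 5549 in the LSD1 line. The melanocyte list, of which 4 of 5 genes were found, summed to 253 to 402 in neoSFs and 4601 to 15555 in monoiPSCs. Endothelial, macrophage and adipocyte markers stayed at or under 212 in every library. The part of such cells in the levels below was not tested.

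In monoiPSCs, oxidative phosphorylation genes were mostly at a moderately higher level than in neoSFs. In such bulk libraries, a change in the make-up of the culture and a change in RNA per cell cannot be told apart. A gene was called differentially expressed (DE) where its p in edgeR's quasi-likelihood test, adjusted over 13072 genes by Benjamini-Hochberg, was 0.05 or lower and the groups differed 2-fold or more. By this rule 15 of the 61 genes were higher in monoiPSCs and 0 were lower, and DESeq2 called 12 and 0. Over all tested genes, 24.3% were called higher and 21.6% lower, so the share called higher (24.6%) was close to the background and no gene was called lower. By the adjusted p alone, 36 genes were higher (59%), against 32.8% of all tested genes, and 1 was lower (1.64%), against 29.4%. At an unadjusted p under 0.05 these counts were 37 and 1. By the adjusted p, DESeq2 gave 35 and 1, and limma gave 28 and 1. The median log2 fold change, monoiPSC over neoSF, was 0.62 for the 61 genes and 0.08 for all tested genes. The quartiles of the 61 values lay at 0.28 and 0.97, and those of all tested genes at -0.86 and 1.05. Of the fitted values 51 were above 0 and 10 below. In NRC, every monoiPSC library was above both neoSF libraries for 38 genes (62.3%), against 36.1% of all tested genes, and below both for 3 genes (4.92%), against 37.1%.

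**Figure D1:**
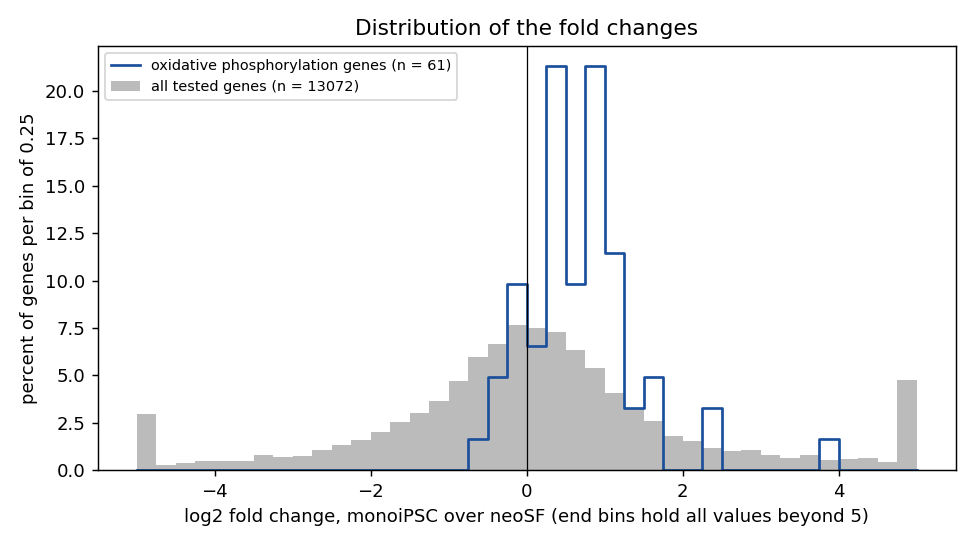
Distribution of log2 fold changes, monoiPSC over neoSF, as the percent of genes in bins of 0.25, for the 61 oxidative phosphorylation genes (line) and all 13072 tested genes (bars). The 61 genes lie between -0.58 and 3.77 with a median of 0.62, in a narrower band than all tested genes, whose median is 0.08.

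The size of this shift depends on how the libraries are scaled. The 10 most abundant genes took 14.21% and 14.64% of the neoSF counts and 3.814% to 4.345% of the monoiPSC counts, and the scaling used here, TMM, corrects for such genes. With library totals in its place, 34 of the genes were DE and higher, the median rose to 1.14 and that of all tested genes to 0.61. The distance between both medians was 0.54 with TMM and with library totals. Scaling moves all genes by nearly the same amount, so it could hardly change this distance. Without the expression filter the distance was 0.39, and with a library left out 0.47 to 0.63. As a plain share of the library, counts of the 61 genes made up 0.251% and 0.256% in the FD2M1 and LSD1 neoSFs and 0.538%, 0.516%, 0.577% and 0.587% in the monoiPSCs, in the order FD2M1 P15, LSD1 P15, FD2M1 P25 and LSD1 P25. This order is kept for all values of the 4 monoiPSC libraries below. The means were 0.253% ± 0.00358 (SD, n = 2) and 0.555% ± 0.0335 (SD, n = 4). The groups did not overlap, and a two-sided exact permutation test gave p = 0.0667, the smallest that 15 ways of choosing 2 of 6 libraries allow.

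**Figure D2:**
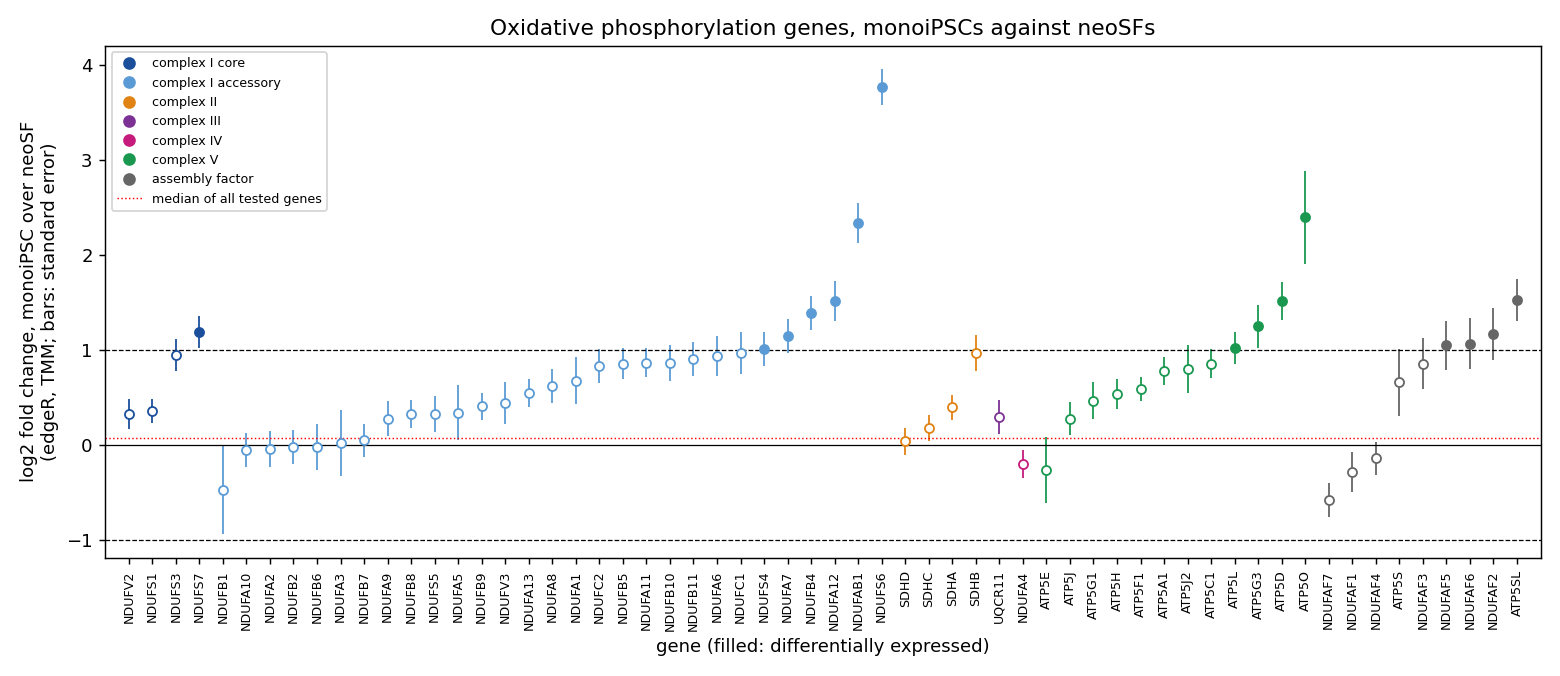
Log2 fold change, monoiPSC over neoSF, of the oxidative phosphorylation genes, with 1 of the 61 not shown, grouped by complex and sorted within it. Points are edgeR estimates, bars are standard errors, filled points are DE, dashed lines mark a 2-fold change and the dotted line the median of all tested genes (0.08). NDUFS6, ATP5O and NDUFAB1 lie above the other genes, between 2.34 and 3.77, and no gene lies below -0.58.

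All 5 core subunits analysed here, which are part of the core, had fitted values above 0, between 0.33 and 1.19. By the adjusted p, 3 passed as higher, against 32.8% of all tested genes. NDUFS7 carries the last iron-sulfur cluster before ubiquinone. It was at NRCs of 764.3 and 719.9 in the FD2M1 and LSD1 neoSFs and of 1357, 1495, 1673 and 1812 in the monoiPSCs. The groups did not overlap, and the 2.28-fold difference (log2 1.19 ± 0.17 SE, adjusted p = 0.000772) made NDUFS7 the only DE core subunit. NDUFS3, a subunit of the same arm, was just under the fold threshold, at 728.7 and 861.1 in neoSFs and 1279, 1354, 1508 and 1631 in monoiPSCs (log2 0.95 ± 0.17 SE, adjusted p = 0.00211). NDUFV2, which lies next to the NADH-binding subunit, gave the smallest value of the core. Its NRCs were 1464 and 1210 in neoSFs and 1466, 1422, 1622 and 1794 in monoiPSCs, the groups overlapped, and the log2 difference of 0.33 ± 0.16 (SE) had an adjusted p of 0.107. NDUFS1, which carries iron-sulfur clusters of the peripheral arm, passed the adjusted p with a log2 fold change of 0.36.

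Of the 29 accessory subunits, 6 were DE and higher, against 24.3% of all tested genes. By the adjusted p, 17 accessory subunits passed as higher, against 32.8%, and 0 as lower (0 also at an unadjusted p under 0.05 and in DESeq2). Their median log2 fold change was 0.62 and their range ran from -0.47 to 3.77, the widest of any group. NDUFS6, a zinc-binding subunit of the NADH-oxidizing arm that joins late in assembly, had the largest change of all 61 genes. Its NRCs were 186.2 and 148.4 in neoSFs and 2176, 1866, 2313 and 2163 in monoiPSCs. Every monoiPSC library was far above both neoSF libraries, and the fitted difference was 13.6-fold (log2 3.77 ± 0.19 SE, adjusted p = 1.53e-05). Among the 13072 tested genes, 909 had a higher fold change. As a share of complex I subunit counts, which does not depend on scaling between libraries, NDUFS6 took 0.557% and 0.439% in neoSFs and 4.7%, 4.26%, 4.62% and 3.97% in monoiPSCs. NDUFS6 was picked for its fold change in the same libraries, so this share is a description and not separate support.

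NDUFAB1 is the mitochondrial acyl carrier protein, which serves in mitochondrial fatty acid synthesis and also sits in complex I as a subunit. It had NRCs of 481.9 and 385.9 in neoSFs and of 2087, 1641, 2319 and 2182 in monoiPSCs. The 5.07-fold difference (log2 2.34 ± 0.21 SE, adjusted p = 9.91e-05) was the second largest of complex I, and no library of one group reached the other. Its share of complex I subunit counts went from 1.44% and 1.14% in neoSFs to 4.51%, 3.75%, 4.63% and 4% in monoiPSCs. Leaving NDUFS6 and NDUFAB1 out, the median of the other 59 genes was 0.59. Whether unannotated copies of NDUFS6 or NDUFAB1 in the genome take up reads differently at the 2 read lengths was not tested.

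The other DE accessory subunits rose between 2.02-fold and 2.88-fold. NDUFA12 lies beside NDUFS6 in the finished complex. Its NRCs were 370.4 and 337 in neoSFs and 788.2, 895.1, 963.8 and 1167 in monoiPSCs, and the groups were far apart (log2 1.52 ± 0.21 SE, adjusted p = 0.000619). NDUFB4, of the membrane arm, was at 695.5 and 680.7 in neoSFs and 1464, 1655, 1596 and 2032 in monoiPSCs. This was a 2.62-fold difference (log2 1.39 ± 0.18 SE, adjusted p = 0.000488), with near-equal neoSF libraries. NDUFA7, another subunit of the peripheral arm, went from 521.5 and 587.7 to 1013, 1080, 1133 and 1379 (log2 1.15 ± 0.18 SE, adjusted p = 0.00132). NDUFS4, whose loss causes Leigh syndrome in human patients, had NRCs of 774 and 671.4 in neoSFs and of 1261, 1169, 1418 and 1608 in monoiPSCs. At log2 1.01 ± 0.18 (SE, adjusted p = 0.00225) NDUFS4 was at the fold threshold and fell below it in several alternative fits.

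At the other end, NDUFB1, a small membrane-arm subunit, was lower in every monoiPSC library. It had NRCs of 259.7 and 276.7 in neoSFs and of 190, 68.81, 209.1 and 256.4 in monoiPSCs. The groups did not overlap, but the LSD1 P15 library stood far below the other 3, and the fitted log2 difference of -0.47 ± 0.47 (SE) did not pass the test (adjusted p = 0.406). It was -0.21 without that library and 0.04 with library totals. NDUFA10, NDUFA2, NDUFB2 and NDUFB6 also had fitted values under 0, all between -0.05 and -0.02 with overlapping groups. The 11 further accessory subunits that passed the adjusted p without reaching a 2-fold change lay between 0.41 (NDUFB9) and 0.97 (NDUFC1). For NDUFA1, the X-linked subunit, NRCs were 433 and 494.7 in neoSFs and 691, 482.4, 788 and 824.4 in monoiPSCs (log2 0.68 ± 0.25 SE, adjusted p = 0.0452), with the LSD1 P15 library inside the neoSF range.

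Complex I subunits as a whole took nearly equal shares of the 61 genes' counts in all 6 libraries. The share was 47.9% and 49.2% in neoSFs and 48.2%, 49.3%, 48.2% and 50.6% in monoiPSCs (difference of means 0.549 percentage points, exact permutation test, p = 0.6). The groups overlapped.

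**Figure D3:**
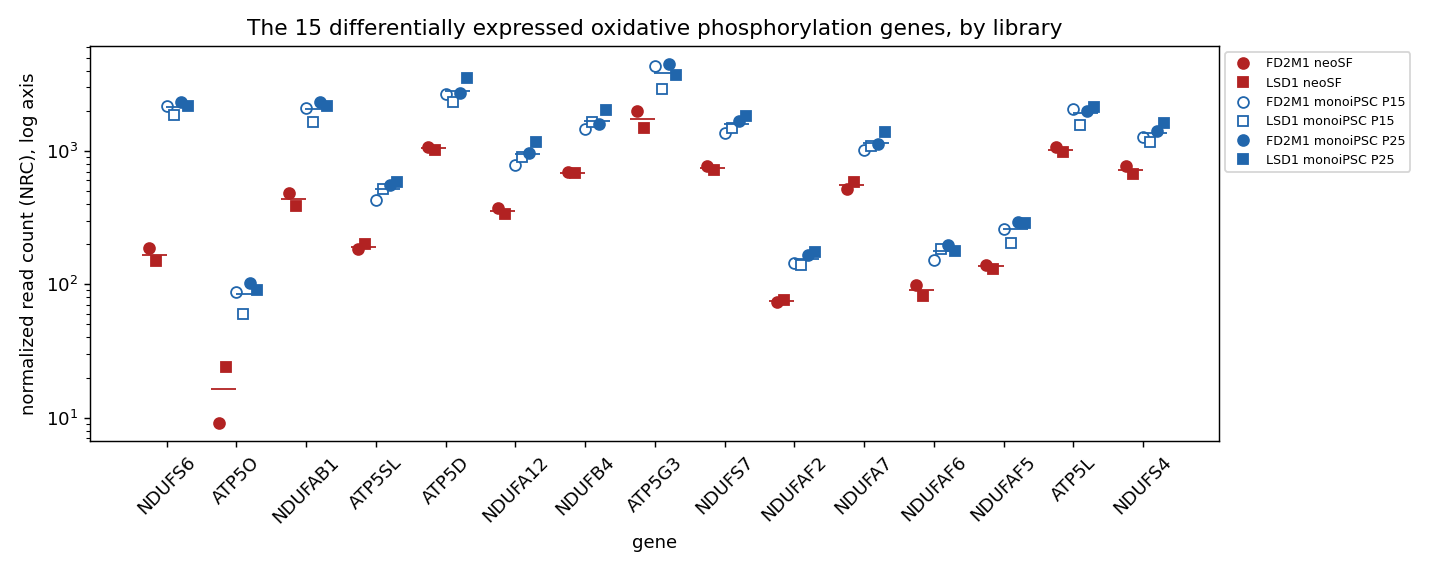
NRC, on a log axis, of the 15 DE genes in each of the 6 libraries, ordered by fold change. Red symbols are neoSFs, blue symbols monoiPSCs (open at P15, filled at P25), circles FD2M1 and squares LSD1, and short lines are group means. All 4 monoiPSC libraries lie above both neoSF libraries for each gene, by the widest margin for NDUFS6.

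The 4 succinate dehydrogenase subunits also serve the tricarboxylic acid (TCA) cycle. None was DE in edgeR or DESeq2, 2 passed the adjusted p in each of these tools (2 at an unadjusted p under 0.05) and 1 in limma. The median log2 fold change of the 4 was 0.29. SDHB, the iron-sulfur subunit, rose the most. It was at NRCs of 852.8 and 989.9 in neoSFs and of 1349, 1869, 1678 and 1854 in monoiPSCs, without overlap and just short of a 2-fold change (log2 0.97 ± 0.19 SE, adjusted p = 0.00304). SDHA, the flavoprotein that oxidizes succinate, had NRCs of 1934 and 1741 in neoSFs and of 2090, 2310, 2398 and 2287 in monoiPSCs. This smaller difference also left the groups apart (log2 0.40 ± 0.13 SE, adjusted p = 0.0316). The adjusted p of SDHA was also passed in DESeq2 (0.0424) and with upper quartile or library total scaling. It was not passed with RLE scaling (0.0546), in limma (0.122), without the expression filter (0.0539) or without LSD1 P15 (0.0634), FD2M1 P25 (0.0943) or LSD1 P25 (0.0563). Without the FD2M1 neoSF library the log2 fold change of SDHA was 0.49, and without the LSD1 neoSF library 0.35. Those fits hold 1 neoSF library, so their p is not read. SDHC and SDHD anchor the enzyme in the membrane, and neither passed the test. For SDHC the NRCs were 2365 and 2622 in neoSFs and 2486, 2536, 2917 and 2658 in monoiPSCs (log2 0.18 ± 0.14 SE, adjusted p = 0.279). For SDHD they were 1850 and 1527 in neoSFs and 1648, 1480, 1731 and 1631 in monoiPSCs (log2 0.04 ± 0.14 SE, adjusted p = 0.826). Both anchor genes thus overlapped between the groups, and the sign for SDHD changed with the scaling. Of the 61 genes' counts, complex II took 10% in each neoSF library and 7.87%, 9.23%, 8.39% and 7.83% in monoiPSCs. This lower share separated the groups (exact permutation test, p = 0.0667, the smallest possible), although the complex II share of the whole library was higher in monoiPSCs, at 0.0424% to 0.0485% against 0.0251% and 0.0256%.

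UQCR11, a small accessory subunit of complex III, had NRCs of 1037 and 1015 in neoSFs and of 1146, 947.4, 1278 and 1357 in monoiPSCs. The groups overlapped and the difference did not pass the test (log2 0.30 ± 0.18 SE, adjusted p = 0.179). NDUFA4 carries a complex I name but belongs to complex IV. It was at 2818 and 2773 in neoSFs and at 2059, 2228, 2144 and 2697 in monoiPSCs. All 4 monoiPSC libraries were lower on the NRC scale, but the fitted log2 difference of -0.20 ± 0.15 (SE) did not pass the test (adjusted p = 0.288) and was 0.32 with library totals.

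ATP synthase had the highest median among the complexes, 0.79. Of its 12 subunits analysed here, 4 were DE and 9 past the adjusted p, all higher, against 24.3% and 32.8% of all tested genes. Of these 4, ATP5O reached the expression minimum through the monoiPSC libraries alone. The ATP synthase share of the 61 genes' counts was 32.7% and 31.2% in neoSFs and 37.4%, 34.4%, 37.1% and 34.8% in monoiPSCs, without overlap (exact permutation test, p = 0.0667, the smallest possible). ATP5A1 and ATP5C1 encode the alpha subunit of the catalytic head and the gamma subunit of the rotor. ATP5A1 had NRCs of 8018 and 7587 in neoSFs and of 12177, 11660, 13368 and 12779 in monoiPSCs (log2 0.78 ± 0.15 SE, adjusted p = 0.00303). ATP5C1 gave a like difference, 0.86 ± 0.15 (SE, adjusted p = 0.0023), and neither reached 2-fold. The delta and epsilon subunits sit together at the foot of the rotor but differed in their values. ATP5D (delta) was at 1073 and 1015 in neoSFs and 2688, 2319, 2723 and 3513 in monoiPSCs, a 2.88-fold difference (log2 1.52 ± 0.20 SE, adjusted p = 0.000523) with no overlap. ATP5E (epsilon) was at 1402 and 1252 in neoSFs and 1042, 522.9, 1188 and 1387 in monoiPSCs (log2 -0.26 ± 0.35 SE, adjusted p = 0.528). ATP5E overlapped between the groups, with LSD1 P15 again far below the rest, and its value was 0.25 with library totals.

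ATP5O encodes OSCP, the subunit that ties the catalytic head to the peripheral stalk. It was the most weakly counted of the 61 genes, with an NRC of 9.149 and 23.86 in neoSFs and of 88.04, 59.8, 101.8 and 89.84 in monoiPSCs. The deposited counts behind these were 4.69 and 15.1 in neoSFs and 114 to 174 in monoiPSCs. ATP5O reached the expression minimum through the monoiPSC libraries alone, so its DE call is given as a description and not as support. The groups did not overlap, and the 5.29-fold difference had the largest standard error of the 61 genes (log2 2.40 ± 0.49 SE). Without the LSD1 neoSF library it was log2 3.23, and without the FD2M1 neoSF library 1.93. The other stalk subunits, ATP5F1, ATP5H and ATP5J, had log2 fold changes of 0.59, 0.54 and 0.28, and the first 2 passed the adjusted p. Whether part of the ATP5O reads were assigned elsewhere was not tested.

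The c ring that turns in the membrane is built from identical mature c subunits, encoded by several genes. ATP5G3 was at NRCs of 1997 and 1485 in neoSFs and of 4357, 2895, 4489 and 3695 in monoiPSCs (log2 1.25 ± 0.23 SE, adjusted p = 0.00274). ATP5G1 was at 1041 and 1060 in neoSFs and 1348, 1086, 1642 and 1364 in monoiPSCs (log2 0.47 ± 0.19 SE, adjusted p = 0.0607). Neither gene overlapped between the groups, but ATP5G1 did not pass the test. Of the counts of both genes, ATP5G3 took 65.7% and 58.3% in neoSFs and 76.4%, 72.7%, 73.2% and 73% in monoiPSCs (62% ± 5.23 SD, n = 2, against 73.8% ± 1.7 SD, n = 4, exact permutation test, p = 0.0667, the smallest possible). How the counting divides reads between such related genes is uncertain. In the membrane part, ATP5L (subunit g) had NRCs of 1066 and 979.1 in neoSFs and of 2070, 1573, 1991 and 2122 in monoiPSCs, at the fold threshold (log2 1.02 ± 0.17 SE, adjusted p = 0.00169). ATP5J2 (subunit f) had a log2 fold change of 0.80 ± 0.25 (SE, adjusted p = 0.0236).

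Of the 9 assembly factors, 4 were DE and higher, against 24.3% of all tested genes. By the adjusted p, 5 of these factors passed as higher and 1 as lower, against 32.8% and 29.4%. Their median log2 fold change was 0.86, from -0.58 to 1.53, and they took a smaller share of the 61 genes' counts in monoiPSCs, 2.96% to 3.51%, than in neoSFs, 3.85% and 4.13%. ATP5SL carries an ATP synthase name, but its RefSeq symbol is DMAC2, a factor known for assembling the distal membrane arm of complex I. Its NRCs were 183.1 and 199.7 in neoSFs and 425.5, 515.7, 550.8 and 585.8 in monoiPSCs, a 2.9-fold difference without overlap (log2 1.53 ± 0.22 SE, adjusted p = 0.000754). NDUFAF2, a relative of NDUFA12 that holds its place in the immature complex, was at 73.16 and 76.24 in neoSFs and 144.9, 140.2, 167 and 173.1 in monoiPSCs. With log2 1.17 ± 0.27 (SE, adjusted p = 0.00757) NDUFAF2 passed both thresholds, with no overlap.

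NDUFAF5 hydroxylates an arginine of NDUFS7. It was at 140.6 and 130.6 in neoSFs and 260, 205.3, 293.9 and 286.1 in monoiPSCs (log2 1.05 ± 0.26 SE, adjusted p = 0.00948). NDUFAF6, another early-acting factor, was at 98.16 and 82.15 in neoSFs and 151.3, 182.8, 196.1 and 177.3 in monoiPSCs (log2 1.07 ± 0.27 SE, adjusted p = 0.0101). Both were without overlap but near the fold threshold. NDUFAF7, a methyltransferase that acts on a complex I subunit, was the only gene of the 61 to pass the adjusted p in the lower direction. It had NRCs of 399.7 and 400.3 in neoSFs and of 248.1, 250.3, 260.8 and 245.2 in monoiPSCs. The libraries of each group were nearly equal and the groups far apart relative to that spread (log2 -0.58 ± 0.18 SE, adjusted p = 0.0279). The adjusted p was no longer passed without either neoSF library (0.0918 and 0.103), without LSD1 P15 (0.0564), without FD2M1 P25 (0.0645), or with upper quartile or library total scaling. NDUFAF1 and NDUFAF4, at log2 -0.28 and -0.14, did not pass the test.

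Between passages, 0 of the 61 genes passed the adjusted p in a fit with line as covariate, where 0% of 12252 genes were called (edgeR's quasi-likelihood test, 1145 genes and 1 of the 61 at an unadjusted p under 0.05). DESeq2 called 144 genes and 0 of the 61. The direction of the estimates was nonetheless mostly shared. In this fit 57 of the 61 genes had a higher value at P25, with a median log2 difference of 0.20 against -0.01 for all genes. The range ran from -0.31 (NDUFA10) to 0.99 (NDUFB1), and the lowest adjusted p was 0.509. Taken line by line on the NRC scale, 51 genes (83.6%) were higher at P25 in FD2M1 and 53 (86.9%) in LSD1, against 49.2% and 50.3% of all genes. The median log2 differences were 0.14 and 0.29. Both lines share no library in this count, and 46 genes (75.4%) were higher in both, against 29% of all genes. With most of the 61 higher in each line, a high share in both follows without agreement gene by gene. LSD1 P15 was the lowest of the 4 monoiPSC libraries for 37 of the 61 genes, and FD2M1 P15 for 19. NDUFA10, NDUFAF1 and NDUFAF4 were lower at P25 in both lines. These are descriptions over genes of the same 4 libraries, which are not independent of each other.

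**Figure D4:**
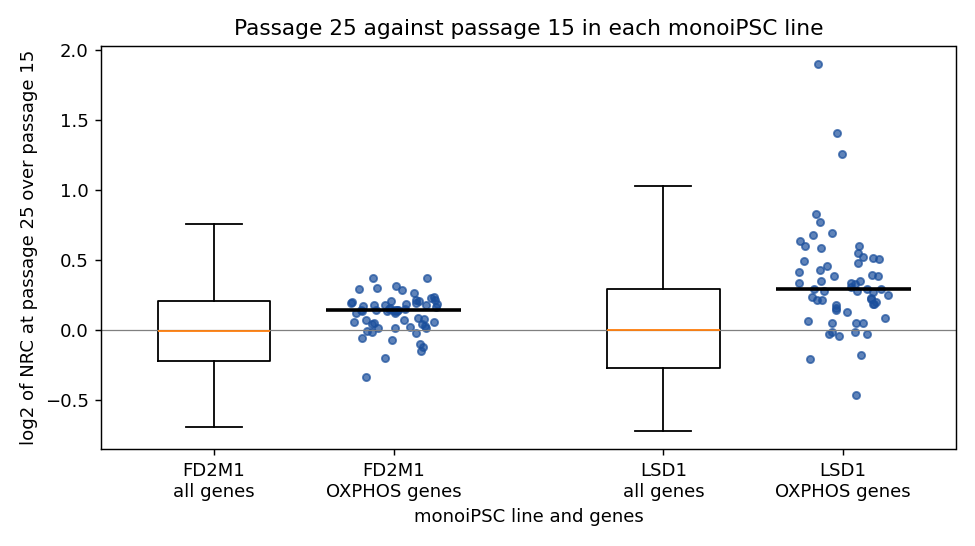
Log2 of NRC at P25 over P15 in the FD2M1 and LSD1 monoiPSC lines. Boxes give the quartiles and median of all 12252 genes with whiskers at the 5th and 95th percentiles, points are the 61 oxidative phosphorylation (OXPHOS) genes, and thick lines are their medians, 0.14 in FD2M1 and 0.29 in LSD1.

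The P15 library of LSD1 held many of the lowest values. For 37 of the 61 genes LSD1 P15 was the lowest of the 4 monoiPSC libraries, whereas it was the lowest for 23% of all genes. The genes furthest down there were NDUFB1, at 32.9% of the median of the other 3 libraries, ATP5E at 44% and NDUFA3 at 45.5%. NDUFA3, a membrane-arm subunit, was at NRCs of 563.6 and 469.3 in neoSFs and of 553.7, 252.2, 545.3 and 603.4 in monoiPSCs, so that LSD1 P15 was below every other library of either cell type. NDUFA5 followed at 58%, ATP5J2 at 60.8% and NDUFA1 at 61.2%. USMG5, known as ATP5MK and also a small ATP synthase subunit, was at 471.4 in LSD1 P15 and 1026 to 1207 in the other monoiPSCs. Other members did not follow: in LSD1 P15 SDHB was at 111% and NDUFA10 at 138% of that median. The total of LSD1 P15, 32760579 counts, was within the range of the other monoiPSC libraries. Of the muscle markers, MYOG, ACTA1 and DES, at 4135, 1765 and 768.5, were above both FD2M1 libraries there, and below LSD1 P25. ACTC1, at 1131, lay between the FD2M1 values of 1391 and 630.4. LSD1 P25 was the highest of the monoiPSCs for these markers, and there NDUFB1, ATP5E and NDUFA3 were at 256.4, 1387 and 603.4. The part of muscle cells in these values was not tested.

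**Figure D5:**
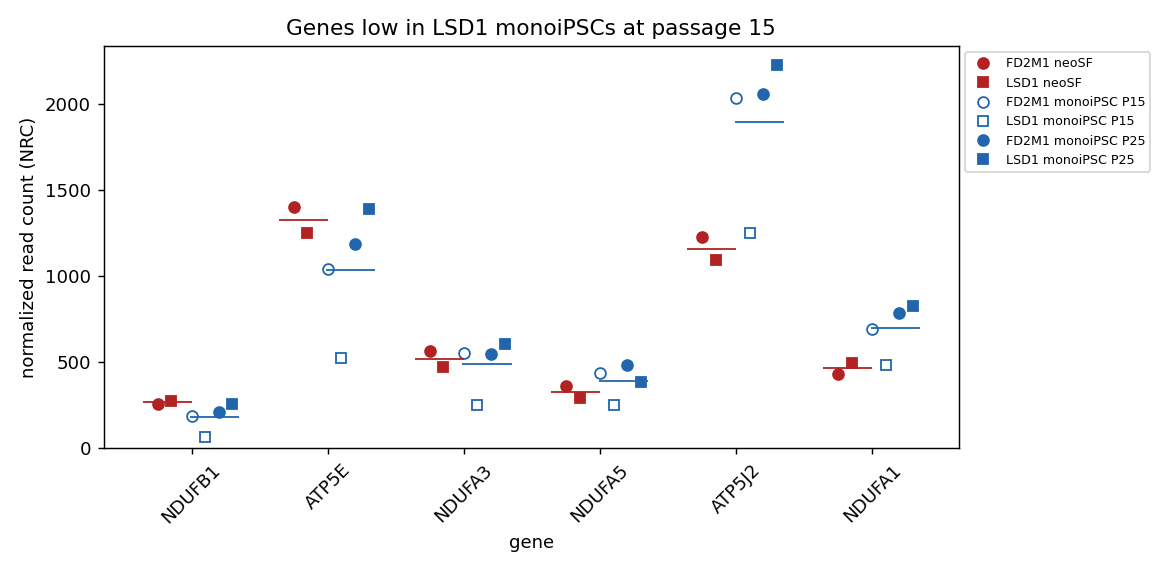
NRC of the 6 genes furthest below the median of the other monoiPSC libraries in LSD1 P15, in each of the 6 libraries, on a linear axis from 0. Red symbols are neoSFs, blue symbols monoiPSCs (open at P15, filled at P25), circles FD2M1 and squares LSD1, and short lines are group means. The open square, LSD1 P15, is the lowest blue symbol for each gene.

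Between the lines, 0 of the 61 genes passed the adjusted p, where 0% of 12252 genes were called (edgeR, 1736 genes and 3 of the 61 at an unadjusted p under 0.05). DESeq2 called 288 genes and 0 of the 61. Estimates for LSD1 over FD2M1 were split, 30 above 0 and 31 below, from -0.56 (NDUFB1) to 0.75 (ATP5S), with a median of -0.02. ATP5S, factor B of ATP synthase, had NRCs of 111.1 and 121.1 in the FD2M1 line and of 191.2 and 198.1 in the LSD1 line, with no overlap, while its neoSF values of 102.1 and 108.8 were alike. Whether the difference between neoSFs and monoiPSCs differed between the strains was tested as an interaction. It was called for 0.0841% of all tested genes and 0 of the 61 (edgeR, 1193 genes and 1 of the 61 at an unadjusted p under 0.05). DESeq2 called 304 genes and 0 of the 61. With 1 neoSF library per strain the interaction values were imprecise, from -1.63 (ATP5O) to 0.62 (ATP5S).

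Other genes of the pathway were counted by list, to be read against the 24.3% of all tested genes that were DE and higher and the 32.8% past the adjusted p as higher. Regulators of mitochondrial biogenesis had 13 tested genes, of which 3 were DE and higher, 8 passed the adjusted p in that direction and 0 in the other, at an unadjusted p under 0.05 too (median log2 fold change 0.83). TFAM, which packages and transcribes mitochondrial DNA, was at NRCs of 876.6 and 781.1 in neoSFs and of 2601, 1902, 2191 and 1594 in monoiPSCs (log2 1.42 ± 0.23 SE, adjusted p = 0.00131). POLG2, the accessory subunit of the mitochondrial DNA polymerase, and TFB1M, a methyltransferase of mitochondrial ribosomal RNA, both rose by log2 1.55. Of 11 tested TCA cycle genes, 2 were DE and higher, FH (1.45) and DLD (1.04), 7 passed the adjusted p as higher and 2 as lower (median 0.54). DLD was under 2-fold in DESeq2 (0.99) and limma (0.94). The DE shares of both lists were no higher than that of all tested genes.

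Assembly factors outside the symbol rule were divided. Of the genes listed, 8 of 11 were tested for complex I and 5 of 10 for complexes II and III. For complex IV it was 9 of 19 and for complex V 4 of 5, so the medians cover only part of each list. For complex I, 8 were tested and the median was -0.17, with FOXRED1 DE and higher (1.13) and TMEM186 DE and lower (-1.79). For complexes II and III, 5 were tested with a median of -0.10. LYRM7, the chaperone of the complex III iron-sulfur protein, rose from 53.98 and 60.12 to 221.9, 276.6, 284.3 and 376.7 (log2 2.43 ± 0.32 SE, adjusted p = 0.000537), SDHAF4, which acts on SDHA, rose by log2 1.28, and TTC19, of complex III, fell by log2 1.25. For complex IV, 9 were tested with a median of 0.90, SURF1 (1.34), CMC2 (1.22) and LRPPRC (1.38) being DE and higher and PET100 (-1.53) DE and lower. For complex V, 0 of 4 tested genes passed the adjusted p in edgeR or DESeq2, or an unadjusted p under 0.05, and their median was 0.15.

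Electron carriers and related dehydrogenases had 5 tested genes, 0 DE in edgeR or DESeq2, 2 past the adjusted p in each direction and a median of 0.15. Of 9 outer membrane, import and cristae genes, only IMMT, which organizes cristae, was DE (1.07), and 4 passed the adjusted p as higher. In limma IMMT was under 2-fold (0.96). Among the adenine nucleotide and uncoupling carriers, 4 genes were tested. SLC25A4, the adenine nucleotide carrier typical of muscle and heart, had NRCs of 3.902 and 10.82 in neoSFs and of 208.8, 95.19, 103 and 286.1 in monoiPSCs. It reached the expression minimum through the monoiPSC libraries alone, so its level is given as a description. SLC25A6, another such carrier, was lower, at 5250 and 6468 in neoSFs and 3355, 3620, 3377 and 3560 in monoiPSCs (log2 -0.66 ± 0.14 SE, adjusted p = 0.00559). SLC25A4 was highest in LSD1 P25, where MYOG, at 5549, and ACTA1, at 9645, were highest, and lowest of the monoiPSCs in LSD1 P15, where both came second, at 4135 and 1765. ACTC1, another muscle marker, was highest in neoSFs, at 16344 and 21468, and at 630.4 to 6418 in monoiPSCs. The part of muscle cells in the SLC25A4 values was not tested. Last, 4 genes that belong to complexes I and V but carry other symbols in these tables were matched by gene number. USMG5 was DE and higher (1.10, adjusted p = 0.0335), although its LSD1 P15 value of 471.4 lay between the neoSF values of 487.2 and 456.3. C1H14orf2 (ATP5MJ) passed the adjusted p at 0.65 (adjusted p = 0.0358), and NDUFAF8 (0.25) and the ATP synthase inhibitor ATPIF1 (0.15) did not. Neither USMG5 nor C1H14orf2 passed in limma (adjusted p = 0.0875 and 0.104).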

How the data were processed

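Per the labels and the study's methods, mRNA libraries (TruSeq kit) of 2 neoSF and 4 monoiPSC samples were aligned by the authors to MonDom5 and its RefSeq transcripts with StrandNGS v4, keeping reads of quality at least 20 and mapping quality at least 40 and removing further placements of multiply mapped reads. The authors deposited raw counts, which are mostly fractional and were treated as estimated counts, and log2 values after DESeq normalization. NRC is 2 to the power of the deposited log2 value. How strand entered the counting is not given in the sources used here.

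Counts were rounded and tested with edgeR 4.0.16 (glmQLFit and glmQLFTest, TMM, R 4.3.3) over 13072 genes, those that reached an NRC of 20 throughout the neoSFs or throughout the monoiPSCs, with Benjamini-Hochberg adjustment over all of them. The passage and line comparisons used the 12252 genes that reached it throughout the monoiPSCs. The fit was also run on simulated counts with few changed genes and independent libraries. These data differ in both, so no support is drawn from that run. Shares were compared with two-sided exact permutation tests. Total counts of 14278621 to 35564224 make genes of a few counts, such as ATP5O in neoSFs, imprecise. Alternatives were RLE, upper quartile and library total scaling, DESeq2 1.42.0, limma 3.58.1 on the deposited log2 values, no expression filter, strain as a block, and leaving out each library.

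The 61 genes and the lists were chosen with earlier results of these data known. Named genes are all DE members, the highest and lowest log2 fold change of each group, complex II and the ATP5G genes, with DE genes of the further lists; others were named after their values were seen. Of the 61, 59 matched the RefSeq table of mMonDom1.pri by gene number, 12 under another symbol. As that table is of another assembly, it gave names only. No transcript lengths or sequences of MonDom5 were used, so levels are not compared between genes. Of the 61 genes, 1 enters the counts but is not reported here by itself. The other paralog families planned for comparison were not analysed here.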

Additional observations from a re-analysis of the deposited data

Results flagged for a closer look

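The NRC of NDUFA3 in the LSD1 monoiPSCs at P15, 252.2, stood apart from the other 3 monoiPSC libraries, at 545.3 to 603.4. The gap to the nearest of them was 0.834 of the whole range, above Dixon's 95% critical value for 4 samples. Among all 12252 genes expressed in the monoiPSCs, 0.441% stood apart in the same way in this library, and of the 61 members 1 did.

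The ATP5G3 share of ATP5G1 and ATP5G3 counts in the FD2M1 monoiPSCs at P15, 76.4%, stood above the other 3, at 72.7% to 73.2%, with a gap of 0.863 of the range. Chance alone gives about 5% of groups such a value, and 61 genes and the shares were examined.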

How the results depend on the processing

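Of the 15 DE genes, 11 were DE in the TMM fit and in all 13 alternatives (ATP5D, ATP5G3, ATP5O, ATP5SL, NDUFA12, NDUFA7, NDUFAB1, NDUFAF2, NDUFB4, NDUFS6 and NDUFS7). The count of DE and higher genes was 12 with RLE scaling, 20 with upper quartile, 34 with library totals, 12 with DESeq2, 11 with limma, 15 without the filter and 12 to 17 with a library left out. ATP5L, NDUFAF5 and NDUFS4 lost the call with RLE and DESeq2, and in limma NDUFAF6 did as well. ATP5O kept it, but reached the expression minimum through the monoiPSC libraries alone. With library totals the median of the 61 genes moved to 1.14, and the values of NDUFB1, NDUFA4 and ATP5E turned to 0.04, 0.32 and 0.25. SDHD turned to -0.01 with RLE, to -0.01 with DESeq2 and to -0.05 with limma, and ranged from -0.07 to 0.19 with a library left out. The count past the adjusted p as higher, 36 in the TMM fit, was 32 with RLE, 40 with upper quartile and 52 with library totals. It was 35 with DESeq2, 28 with limma, 32 without the filter and 30 to 34 with a monoiPSC library left out. The count past the adjusted p as lower was 0 with upper quartile scaling and with library totals, and 0 to 1 with a monoiPSC library left out. The difference in the complex I share of the members' counts ranged from -0.0884 to 1.19 percentage points with a library left out. The causes of these changes were not tested.

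Strain links each monoiPSC line to the neoSF culture of its own strain, but the libraries' deviations from their group means correlated by only -0.0101 to 0.08 within a strain. With strain as a replicate block, 15 genes were DE and higher, all 15 shared with the fit without it, and 36 passed the adjusted p.

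The limits are those of 2 neoSF libraries, 1 per strain, at a lower depth than the 4 monoiPSC libraries. Permutation tests could not go below 0.0667.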
